A study of Mus musculus with 24 samples.

Results

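The arachidonate and leukotriene enzymes with Pla2g2d are 10 genes of the 29742 gene names on the array: Pla2g2d, Alox5, Alox5ap, Lta4h, Ltc4s, Alox12, Alox15, Ptgs1, Ptgs2 and Tbxas1. Pla2g2d was selected on its lower level after irradiation in these same arrays, and the other 9 were added as enzymes of the same pathway with results of these arrays known. The values of the members are therefore a description. Their calls in the limma fits are printed as part of it and are no independent test. Male C57BL/6J mice, either young (2 months) or old (21 months), received 4 Gy of x-rays to the whole body or a sham exposure (0 Gy). Blood was drawn 24 h later by cardiac puncture into PAXgene tubes. Globin transcripts had been depleted from the RNA. Each of the 4 groups held 6 mice, each mouse had 1 array, and nothing was pooled. The comparisons ask what irradiation changes in the blood of young and of old mice, how unirradiated old and young mice differ, and whether the response to radiation differs with age.

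Phospholipases release arachidonate from membrane phospholipids, and Pla2g2d encodes a secreted enzyme of this class that is known from dendritic cells and macrophages of lymphoid tissue. Lipoxygenases turn the free acid into leukotrienes, lipoxins and other hydroxylated lipids, and cyclooxygenases turn it into prostaglandins and thromboxane. In blood, neutrophils and monocytes are known for the 5-lipoxygenase route to leukotrienes, and platelets for 12-lipoxygenase and for thromboxane, which promotes their aggregation.

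Levels are given as log2 of the background-subtracted spot signal minus the median of the array, so that 0 is the median spot. The median signal of an array was between 8.66 and 44.8 units, and the number of arrays limits the precision. Between 43.9% and 64.4% of the probes were well above background on an array. Young and old mice were scanned in 2 separate runs, so age and scan cannot be told apart. Irradiated and unirradiated mice of 1 age shared a scan and, on 1 slide of each age, also a slide.

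Some arrays stood apart. Old irradiated replicates 4 and 6 correlated at 0.994 with each other and at 0.764 to 0.823 with the other 4 arrays of their group, which correlated at 0.940 to 0.985 among themselves. Their median signals, 8.66 and 8.84, were the lowest of the 24 arrays. The summed level of 8 erythroid markers was 57900 and 65300 on them and between 9220 and 18500 on the other 4, with Alas2 the most abundant of the 8. Old unirradiated replicates 1 and 6 correlated at 0.998, and young irradiated replicates 2 and 5 at 0.994. The SD of the difference over 13701 probes was 0.178 between old unirradiated replicates 1 and 6, beside 0.132 between repeat spots on an array. It was 0.311 beside 0.233 for old irradiated replicates 4 and 6, and 0.266 beside 0.146 for young irradiated replicates 2 and 5. The labels give each array its own replicate number, and the paper describes the heatmap columns as individual mice. It was not tested whether any of these pairs shares RNA. With old unirradiated replicates 1 and 6 treated as 1 sample, Alox5ap was no longer called in old mice. In that fit 4 members were called, beside 3276 of all genes.

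Hepatocyte markers divided the irradiated groups. The summed level of 10 hepatocyte markers was 15800, 17700 and 22700 on old irradiated replicates 2, 3 and 5, and 17500, 38300 and 19800 on young irradiated replicates 2, 4 and 5. Serpina1a was the most abundant of the 10 markers on these 6 arrays. On old irradiated replicates 4 and 6 the sum was 347 and 303, and on old irradiated replicate 1 it was 88.8. Among unirradiated mice it was 2870 on young replicate 5 and 477 on young replicate 3, and between 41.9 and 190 on the others. Alb was above background in 0 of 6 old unirradiated arrays. Many of the values below are given again without these arrays, and the part of the hepatocyte signal in any member's value was not tested.

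Of the 10 members, 8 passed the filters and entered the limma fit over 17797 genes. Ptgs2 was too dim, and Lta4h varied too little for the 1.5-fold filter. A gene was called where its p was under 0.005 before and under 0.05 after Benjamini-Hochberg adjustment. In young mice, 8 of the 8 members tested were called after irradiation, 7 up and 1 down, where 35.4% of all genes were called, 14.3% up and 21.1% down. In old mice 5 were called, 4 up and 1 down, beside 24.9% of all genes, 7.49% up and 17.4% down. Between unirradiated old and young mice 5 were called, all of them up, beside 63.9% of all genes, 48.5% up and 15.4% down. Nothing is read from these counts, since the members were chosen with results of the same comparisons known.

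For 7 of the 10 members the irradiated and the unirradiated group of young mice were fully separate, beside 24.7% of the genes tested, and for 5 members the same held in old mice, beside 22.5%. One of those 5 was Ptgs2, which lies near background and was not tested. Old and young unirradiated mice did not overlap for 4 members, beside 48.6% of the genes tested. Over all genes tested, irradiation gave a median change of −0.20 in young and −0.26 in old mice, and the median difference of old from young unirradiated mice was 0.63. Changes relative to these medians are therefore given beside the changes themselves. Lower levels in whole blood cannot be told apart as fewer cells of a type or less RNA per cell.

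The share of DEGs that went up depended on the scaling of the arrays in old mice and between the ages, and little in young mice. Of the DEGs in young mice, 40.4% were up with the array median, and 42%, 38.4%, 43.9% and 38.1% after 75th percentile scaling, quantile normalization and scaling to bright probes, those well above background on each of the 24 arrays, and in the authors' values. Other changes to the processing moved it more: a single fit of all 24 arrays gave 51.5%, and normexp background correction gave 94%, or 57.8% without spots of bright local background. In old mice the share was 30.1% with the array median and 48% with the 75th percentile. It was 36.1% after quantile normalization, 53.3% after bright-probe scaling and 51.4% in the authors' values. Between unirradiated old and young mice it was 75.9% with the array median and 28.9%, 44.8%, 21.6% and 17.3% after 75th percentile scaling, quantile normalization and bright-probe scaling and in the authors' values. The median change over all genes tested after irradiation of old mice also moved. It became 0.24, −0.05, 0.30 and 0.07 after 75th percentile scaling, quantile normalization and bright-probe scaling and in the authors' values. Between old and young mice it was 0, 0.14, −0.08 and 0.02 under the same 4 alternatives.

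**Figure D1:**
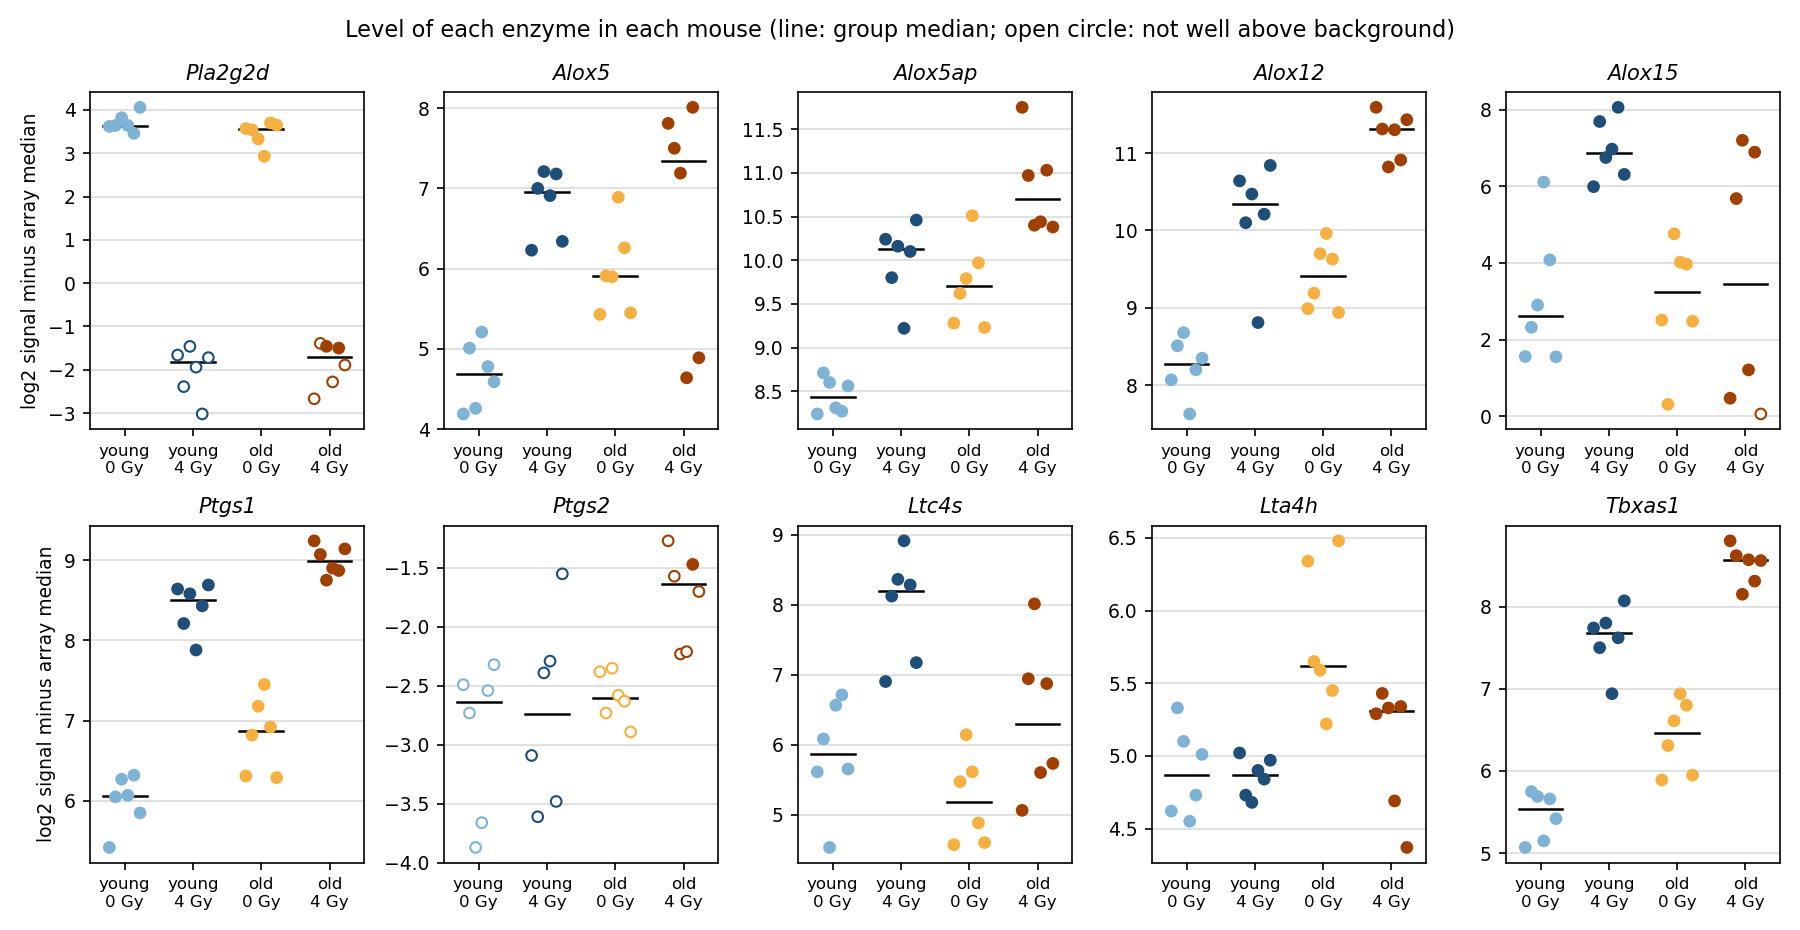
Level of each of the 10 members on each of the 24 arrays, as log2 of the signal minus the array median, by group of 6 mice. Pla2g2d lies between 2.93 and 4.06 in unirradiated mice and between −3.02 and −1.39 in irradiated mice.

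The promoters of Pla2g2d, Alox12, Ptgs1 and Tbxas1 are shown because these are the 4 members whose irradiated and unirradiated groups were apart at both ages and lay above background in the unirradiated mice. Each spans 300 bases, 250 before the RefSeq transcription start and 50 after it, on GRCm38.p6, and 8 of the 10 members were found in the RefSeq promoter table, with 1 start each. Alox5ap and Alox15 were not in it. The coordinates are chr4:138775485-138775784 on the + strand for Pla2g2d, chr11:70255321-70255620 on the − strand for Alox12, chr2:36230176-36230475 on the + strand for Ptgs1, and chr6:38918736-38919035 on the + strand for Tbxas1. Capitals mark GAGGAA, a core bound by ETS factors of the PU.1 type, and GGGCGG, the GC box, each searched on both strands, with a match on the other strand in capitals as its reverse complement.
Pla2g2d: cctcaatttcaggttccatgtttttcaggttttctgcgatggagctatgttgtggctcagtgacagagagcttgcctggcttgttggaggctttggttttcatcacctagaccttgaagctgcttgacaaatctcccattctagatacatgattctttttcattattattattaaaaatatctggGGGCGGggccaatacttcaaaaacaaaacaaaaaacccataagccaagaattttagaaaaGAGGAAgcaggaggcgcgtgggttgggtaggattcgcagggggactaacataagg
Alox12: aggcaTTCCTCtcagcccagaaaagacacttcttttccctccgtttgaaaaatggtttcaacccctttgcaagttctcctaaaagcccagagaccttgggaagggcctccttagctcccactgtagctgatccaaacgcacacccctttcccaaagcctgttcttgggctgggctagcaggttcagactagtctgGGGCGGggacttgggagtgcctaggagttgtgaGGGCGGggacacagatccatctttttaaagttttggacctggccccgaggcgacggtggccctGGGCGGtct
Ptgs1: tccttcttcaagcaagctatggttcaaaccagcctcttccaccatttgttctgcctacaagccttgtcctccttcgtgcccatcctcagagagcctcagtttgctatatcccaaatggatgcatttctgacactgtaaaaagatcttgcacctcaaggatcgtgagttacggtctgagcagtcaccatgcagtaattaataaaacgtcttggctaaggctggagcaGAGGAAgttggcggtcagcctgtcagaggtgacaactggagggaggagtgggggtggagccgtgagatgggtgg
Tbxas1: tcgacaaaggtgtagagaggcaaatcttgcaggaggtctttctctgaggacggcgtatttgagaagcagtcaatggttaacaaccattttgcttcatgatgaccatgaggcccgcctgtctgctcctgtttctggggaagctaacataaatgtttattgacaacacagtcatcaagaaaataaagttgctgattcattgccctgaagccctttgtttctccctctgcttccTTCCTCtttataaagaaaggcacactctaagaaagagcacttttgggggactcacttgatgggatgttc
GAGGAA occurred in 8 of the 8 member promoters and in 28.3% of all 32851 promoters. The GC box occurred in 4 of 8 and in 35.7% of all promoters, and AGATAA, the motif of GATA factors, in 0 of 8 and in 11.2%. A match describes these letters within the window and is not a bound site.

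Pla2g2d, the secreted phospholipase, had levels of 3.46, 3.64 and 4.06 (lowest, median and highest of 6) in young unirradiated mice and of −3.02, −1.83 and −1.46 in young irradiated mice. All 6 unirradiated arrays were above background and 0 of 6 irradiated arrays were, and the groups were far apart. The change was −5.74 (SE 0.24), or −5.54 relative to the median of all genes, which corresponds to a level at least 24.4-fold lower when each irradiated array is set to at least its lowest level that is well above background. Old mice had levels of 2.93, 3.56 and 3.70 without irradiation and −2.67, −1.70 and −1.39 with it. The groups were again far apart, with 2 of 6 irradiated arrays above background. The change was −5.32 (SE 0.28), or −5.06 relative to all genes.

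The arrays that stood apart had little effect on this. Without old irradiated replicates 4 and 6 the change of Pla2g2d in old mice was −5.21, and without replicates 2, 3 and 5 it was −5.73. Without young irradiated replicates 2, 4 and 5 it was −5.32 in young mice. Leaving out each array in turn gave −5.85 to −5.54 in young and −5.42 to −5.16 in old mice. Most irradiated arrays were at background, and the size of the change depended on the processing. It was −2.44 in young and −2.14 in old mice under a normexp correction fitted without spots of bright local background, and −4.56 in old mice in the authors' values. The normexp correction also added an offset of 50 units, more than the median signal of any array. Such an offset shrinks changes at low signal by construction. Its part and that of the background fit were not tested separately. A second Pla2g2d probe was above background on 1 of 24 arrays, so that no change can be read from it.

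Alox5 encodes 5-lipoxygenase, which starts leukotriene synthesis. Its levels were 4.19, 4.68 and 5.21 in young unirradiated and 6.23, 6.95 and 7.21 in young irradiated mice. All 6 irradiated mice were above all unirradiated mice, with a change of 2.14 (SE 0.23), or 2.34 relative to all genes. In old mice the levels were 5.43, 5.90 and 6.89 without and 4.64, 7.35 and 8.01 with irradiation. The irradiated group was divided, with replicates 4 and 6 below every unirradiated mouse and the other 4 above every one. The change was 0.70 (SE 0.59) and the gene was not called. Without replicates 4 and 6 it was 1.65 and Alox5 was called. In that fit 6 members were called in all, beside 6128 of 17797 genes, where all arrays gave 5 members and 4428 genes. The change of Alox5 without replicates 2, 3 and 5 was −0.19.

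Alox5ap encodes the membrane protein that presents arachidonate to 5-lipoxygenase. Its levels were 8.24, 8.43 and 8.71 in young unirradiated and 9.22, 10.13 and 10.46 in young irradiated mice. The groups did not overlap, and the change was 1.55 (SE 0.20), or 1.74 relative to all genes. The levels in old mice were 9.23, 9.71 and 10.51 without and 10.38, 10.71 and 11.75 with irradiation. Of the 6 irradiated mice 3 were above all unirradiated mice, and the highest unirradiated mouse overlapped the lower irradiated ones. The change was 1.10 (SE 0.31), or 1.35 relative to all genes, with a range of 0.91 to 1.25 when each array was left out. It was no longer called without any 1 of unirradiated replicates 1, 2, 3, 5 and 6 or of irradiated replicates 1, 2 and 5. In each of these fits 4 members were called, beside 3234 to 4384 of all genes.

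Lta4h encodes the hydrolase that makes leukotriene B4. Its levels were 4.55, 4.87 and 5.33 in young unirradiated and 4.68, 4.87 and 5.02 in young irradiated mice, and the groups lay within each other. Old mice had levels of 5.22, 5.62 and 6.48 without and 4.37, 5.31 and 5.43 with irradiation. Here irradiated replicates 4 and 6, arrays that stood apart, were below all unirradiated mice and the other 4 overlapped. The changes were −0.03 (SE 0.14) in young and −0.71 (SE 0.27) in old mice, or 0.16 and −0.46 relative to all genes. The change in old mice was −0.44 without old irradiated replicates 4 and 6 and −1.01 without replicates 2, 3 and 5.

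Ltc4s encodes the synthase that joins leukotriene A4 to glutathione and so starts the cysteinyl leukotrienes. Its levels were 4.53, 5.87 and 6.71 in young unirradiated and 6.90, 8.20 and 8.91 in young irradiated mice. The groups did not overlap, and the change was 2.10 (SE 0.41), or 2.30 relative to all genes. Without young irradiated replicates 2, 4 and 5 it was 1.62 and the gene was no longer called. Levels at the older age were 4.57, 5.18 and 6.14 without and 5.06, 6.30 and 8.01 with irradiation. Irradiated replicates 2, 3 and 5, the arrays with hepatocyte signal, were above all unirradiated mice and the other 3 were among them. The change was 1.16 (SE 0.48), not called, and it was 0.25 without replicates 2, 3 and 5.

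Alox12 encodes the 12-lipoxygenase of platelets. Its levels were 7.63, 8.27 and 8.68 in young unirradiated and 8.81, 10.34 and 10.84 in young irradiated mice. The groups did not overlap, although irradiated replicate 4, at 8.81, was close to the highest unirradiated mouse. The change was 1.94 (SE 0.31), or 2.13 relative to all genes, and 2.21 without that array. In old mice the levels were 8.94, 9.41 and 9.96 without and 10.82, 11.31 and 11.59 with irradiation. All 6 irradiated mice were above all unirradiated mice, with a change of 1.83 (SE 0.26), or 2.08 relative to all genes. A second Alox12 probe, above background on every array, had changes of 2.01 (SE 0.50) and 1.55 (SE 0.31), the same direction as the first.

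Alox15 encodes the 12/15-lipoxygenase, known from resident macrophages of the peritoneum and from eosinophils. Its levels were 1.55, 2.61 and 6.11 in young unirradiated and 5.99, 6.86 and 8.06 in young irradiated mice. Unirradiated replicate 4, at 6.11, was the only unirradiated mouse among the irradiated ones. The change was 3.87 (SE 0.70), or 4.07 relative to all genes, 4.48 without that array, and 3.26 without young irradiated replicates 2, 4 and 5. The levels in old mice were 0.31, 3.24 and 4.76 without and 0.06, 3.45 and 7.20 with irradiation. The irradiated mice formed a high set, replicates 2, 3 and 5 at 5.68, 7.20 and 6.89, and a low set, replicates 1, 4 and 6 at 0.47, 1.21 and 0.06. The change was 0.58 (SE 1.32), not called, and leaving out each array gave −0.15 (without irradiated replicate 3) to 1.28 (without irradiated replicate 6). It was 2.05 without replicates 4 and 6 and −2.43 without replicates 2, 3 and 5, so that its direction depended on which arrays were kept.

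Ptgs1 encodes cyclooxygenase 1, which makes the common precursor of prostaglandins and thromboxane. Its levels were 5.42, 6.06 and 6.32 in young unirradiated and 7.88, 8.50 and 8.69 in young irradiated mice. The groups were apart, with a change of 2.41 (SE 0.19), or 2.61 relative to all genes. Levels at the older age were 6.29, 6.87 and 7.45 without and 8.75, 8.99 and 9.24 with irradiation. Again all 6 irradiated mice were above all unirradiated mice, and the change was 2.16 (SE 0.25), or 2.42 relative to all genes. Without old irradiated replicates 2, 3 and 5 it was 2.26.

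Ptgs2 encodes the inducible cyclooxygenase 2. Its probe was above background on 1 of 24 arrays, an old irradiated one, and its median level was −2.64, −2.74, −2.60 and −1.63 in young unirradiated, young irradiated, old unirradiated and old irradiated mice. The changes were 0.20 (SE 0.42) and 0.85 (SE 0.18), differences between spots near background.

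Tbxas1 encodes thromboxane A synthase. Its levels were 5.07, 5.54 and 5.75 in young unirradiated and 6.94, 7.68 and 8.07 in young irradiated mice. The groups did not overlap, and the change was 2.16 (SE 0.20), or 2.35 relative to all genes. Old mice had levels of 5.89, 6.46 and 6.94 without and 8.15, 8.57 and 8.80 with irradiation. The groups were apart here too, with a change of 2.09 (SE 0.25), or 2.34 relative to all genes, and 2.23 without irradiated replicates 2, 3 and 5.

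**Figure D2:**
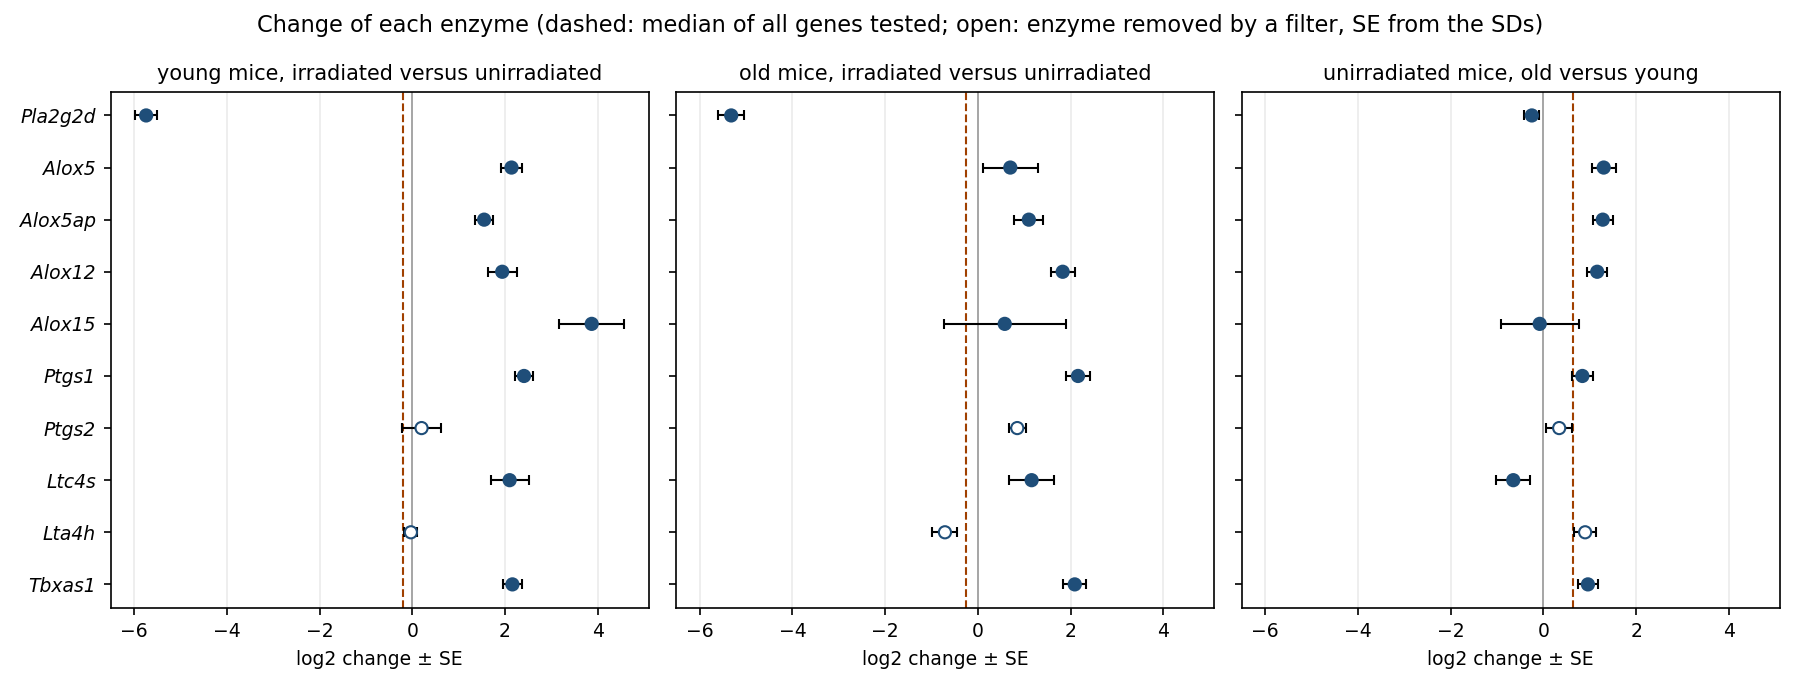
Log2 change of each member with its SE after irradiation at each age and between the unirradiated groups of the ages. After irradiation Ptgs1 changed by 2.41 and 2.16, Tbxas1 by 2.16 and 2.09, and Pla2g2d by −5.74 and −5.32 in young and old mice.

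On the slide of each age that held both treatments, with 2 irradiated and 2 unirradiated mice, most members changed in the same direction as on all arrays. Pla2g2d differed by −5.78 in young and −5.70 in old mice, beside a median of all genes of −0.23 and −0.12. Ptgs1 differed by 2.34 and 2.55, Tbxas1 by 2.08 and 2.34, and Alox12 by 2.10 and 2.17. Alox5 differed by 1.93 and 1.80 and Alox5ap by 1.61 and 1.76, where the old slide held neither of irradiated replicates 4 and 6. Alox15 differed by 4.02 on the young slide and by −0.15, with overlap, on the old slide. Ltc4s differed by 1.33 on the young slide and was higher on the old slide too, and Lta4h by 0 and −0.61. Ptgs2, near background, differed by −0.92 and 1.34.

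The directions of the 8 members tested were the same in young mice under 75th percentile scaling, quantile normalization, bright-probe scaling and the authors' values, and 8 members were called under each. Over all genes, 5782, 5925, 5760 and 3736 were called in young mice and 3849, 3898, 3729 and 2811 in old mice. In old mice Pla2g2d, Alox12, Ptgs1 and Tbxas1 were called under each of these 4, and Alox5ap was not called with quantile normalization or in the authors' values. The comparison of old with young mice was different in this respect.

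Between unirradiated old and young mice Pla2g2d changed by −0.25 (SE 0.16) and overlapped between the ages, which is −0.88 relative to all genes. It was not called with the array median, but it was called down at −0.77, −0.79, −0.84 and −0.90 with 75th percentile scaling, quantile normalization, bright-probe scaling and the authors' values. Alox5 and Alox5ap were higher in every old mouse, by 1.30 (SE 0.26) and 1.28 (SE 0.21), or 0.67 and 0.66 relative to all genes. Alox12 was likewise higher in every old mouse, by 1.16 (SE 0.22), or 0.53 relative to all genes, and Tbxas1 by 0.96 (SE 0.21), or 0.33. Some cell type markers were up too: 11 of 12 for platelets and megakaryocytes, 8 of 10 for neutrophils and 7 of 9 for monocytes. Their medians were 1.17, 1.75 and 1.28, beside 0.63 for all genes. Other lists differed: 4 of 7 hepatocyte markers were down, with a median of −2.81. For T cells and for tissue macrophages 0 of 10 were up and 1 was down. Under the alternatives named above, 2, 1, 1 and 0 platelet, 7, 7, 5 and 6 neutrophil and 3, 4, 4 and 1 monocyte markers were up. Tested there were 12 platelet, 10, 10, 9 and 10 neutrophil and 8, 8, 8 and 9 monocyte markers. The part of these markers in the members' values was not tested.

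Ptgs1 was higher by 0.84 (SE 0.22), or 0.21 relative to all genes, with 4 of 6 old mice above all young mice. It was no longer called without any 1 of young unirradiated replicates 1 and 6 or old unirradiated replicates 3, 4 and 5. Ltc4s changed by −0.65 (SE 0.37) with overlap, or −1.27 relative to all genes, and was called down only in the authors' values, at −1.45. Alox15 changed by −0.08 (SE 0.84), and leaving out each array gave −0.43 (without old unirradiated replicate 3) to 0.53 (without young unirradiated replicate 4). Lta4h was higher by 0.90 (SE 0.24), or 0.27 relative to all genes, with 5 of 6 old mice above all young mice.

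The number of members called between the ages depended on the scaling. It was 5 with the array median, all up, and 2 with the 75th percentile and 2 with quantile normalization, in both cases Alox5ap up and Pla2g2d down. It was 1 with the bright probes, Pla2g2d down, and 2 in the authors' values, Pla2g2d and Ltc4s, both down. Calls over all genes fell as well. In the same order they were 11368 of 17797, 5827 of 15630, 6046 of 15796, 5544 of 15482 and 4407 of 16693. Ptgs2 flipped from 0.34 to −0.18 with the 75th percentile and −0.25 with the bright probes. The direction of the other 9 members was the same under these scalings, with Lta4h missing from the authors' values.

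**Figure D3:**
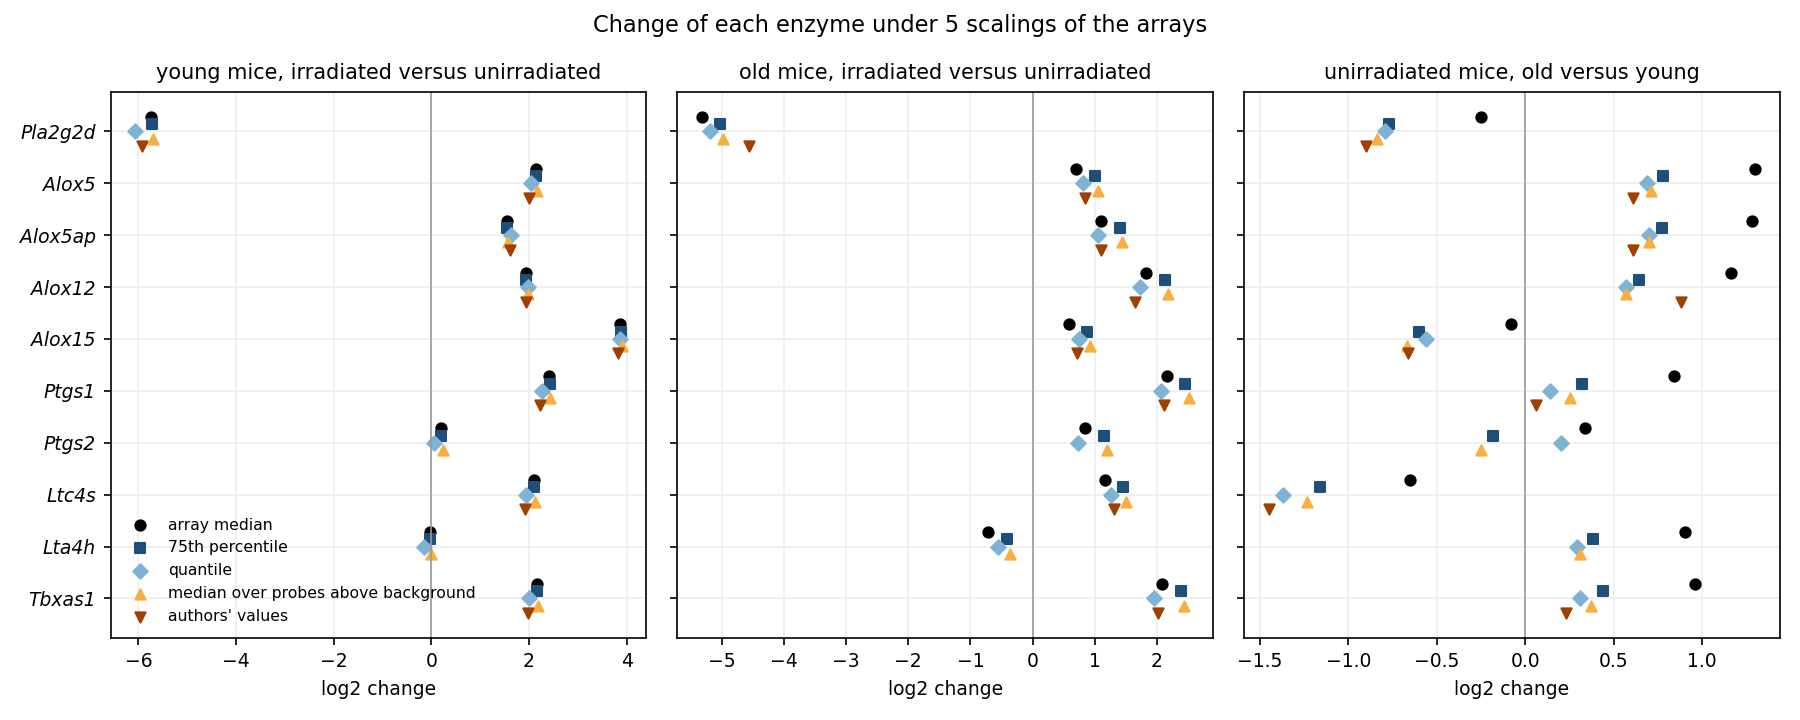
Log2 change of the members between unirradiated old and young mice under each scaling of the arrays. Alox5 moves from 1.30 with the array median to 0.78 with the 75th percentile, and Pla2g2d from −0.25 to −0.77.

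The response of old mice minus that of young mice was tested as an interaction in limma. It was called for 0 of 8 members and for 0 of 17797 genes (0% of all genes), where 4196 genes had an unadjusted p below 0.05 and the median was −0.24. Other settings gave 8 genes under 75th percentile scaling, 7 under quantile normalization, 8 with the bright probes and 32 with the slide as a random block. The count was 1058 without old irradiated replicate 3 and at most 7 when any other 1 array was left out. The interaction of Pla2g2d was 0.42 (SE 0.36), that of Tbxas1 was −0.07 (SE 0.31) and that of Alox12 was −0.11 (SE 0.40). Since Pla2g2d was at background on most irradiated arrays of both ages, an age difference that lies below background could not have been seen. Larger values were found for Alox15, −3.30 (SE 1.58), Alox5, −1.44 (SE 0.66), and Ltc4s, −0.94 (SE 0.65), the members with divided old irradiated mice. Without old irradiated replicates 2, 3 and 5, 6050 genes and 2 members, Alox5 and Alox15, were called, both with the lower response in old mice. The old irradiated arrays kept in that fit include replicates 4 and 6, which correlated at 0.994 and count there as separate samples. No weight is put on these calls. Without replicates 4 and 6, 27 genes and 0 members were called.

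Members that varied together within groups were found by Pearson correlation over the 24 arrays after the group means were subtracted. Alox12 and Tbxas1 correlated at 0.90, Ptgs1 and Tbxas1 at 0.89, and Alox5ap and Tbxas1 at 0.79. Alox15 and Ltc4s correlated at 0.69 and Alox5 and Alox15 at 0.59, whereas Alox12 and Ltc4s had −0.46. The thromboxane and 12-lipoxygenase genes thus varied together from mouse to mouse and apart from Alox15 and Ltc4s. Some of these values depended on the arrays that stood apart. In a repeat chosen after seeing the data, Alox5 and Alox15 had 0.30 without old irradiated replicates 4 and 6. Without the 6 irradiated arrays with hepatocyte signal they had 0.25, and Alox15 and Ltc4s had 0.43. The 3 pairs with Tbxas1 had between 0.74 and 0.90 in both repeats. These arrays share slides and scans, and no p is given.

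The genes most like each member over 17767 genes were named in the same way. For Alox12 they included Mrvi1 and Gp1ba at 0.979 and 0.977, of which Gp1ba is in the platelet list. For Tbxas1 they were Nacc2, Dusp3 and Epor at 0.936, 0.929 and 0.929, and for Ptgs1 they were Tbxas1, Lrrc32 and 4930426L09Rik at 0.889, 0.885 and 0.877. For Alox5 the nearest genes were Ccl6, P2ry2 and Arsg at 0.974, 0.973 and 0.968, and for Alox5ap they were Arhgap23, Gcnt1 and Cdkn2d at 0.970, 0.957 and 0.956. For Alox15 they were Garnl3, Fgfr1 and Prg4 at 0.952, 0.939 and 0.937, of which Garnl3 and Prg4 are in the list of peritoneal and pleural macrophages. For Ltc4s they were Nenf, Ramp3 and Dmpk, with Nenf at 0.901.

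For Pla2g2d no nearest genes are given, because most irradiated arrays were at background for it. The nearest genes were found on all 24 arrays only.

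Marker lists of 14 cell types were set beside the members. The mean of the platelet and megakaryocyte list correlated at 0.98 with Alox12, 0.92 with Tbxas1 and 0.76 with Ptgs1 after subtraction of the group means. All 12 genes of this list were above background on every array, and 12 of 12 were upregulated after irradiation in both young and old mice, with medians of 1.88 and 1.89. Its summed level was 4410 to 7780 in young unirradiated, 10900 to 29400 in young irradiated, 8070 to 16400 in old unirradiated and 24000 to 49900 in old irradiated mice, with Pf4 the most abundant gene. The list thus moved in the same direction as these 3 members. In young and old mice they changed by 1.94 and 1.83 (Alox12), 2.16 and 2.09 (Tbxas1) and 2.41 and 2.16 (Ptgs1). The paper reports that platelet counts showed no appreciable change after irradiation at either age. The part of the list in the values of the members was not tested.

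**Figure D4:**
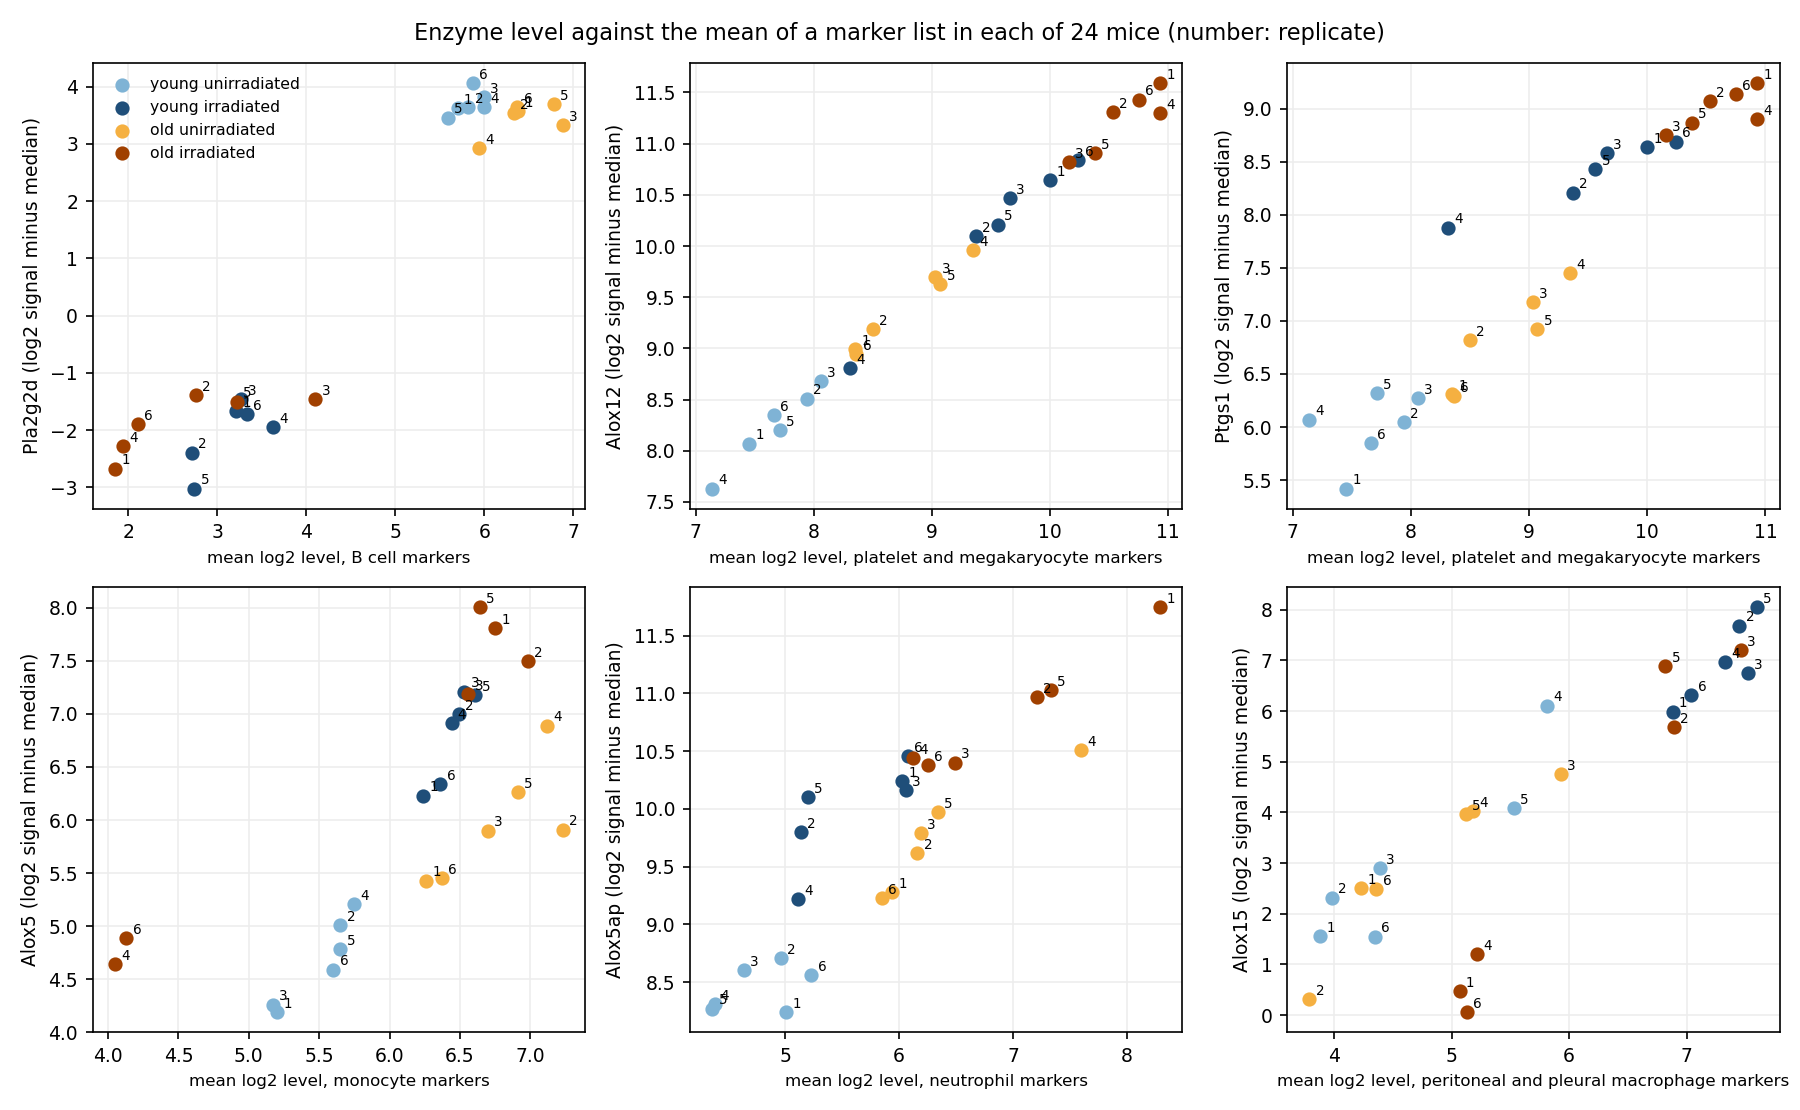
Level of a member against the mean log2 level of a marker list on the 24 arrays, with groups in colour. Alox12 follows the platelet and megakaryocyte list (0.98 with group means subtracted) and Alox15 the list of peritoneal and pleural macrophages (0.94).

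For Pla2g2d no correlation with a list is given, since 10 of the 12 irradiated arrays were at background. Of the 10 B cell markers 10 were downregulated in young and 9 in old irradiated mice, with medians of −2.56 and −3.84. The summed level was 1690 to 2080 in young unirradiated, 215 to 602 in young irradiated, 1930 to 3860 in old unirradiated and 72.1 to 902 in old irradiated mice, with Cd79b the most abundant gene. The paper reports that the lymphocyte share of white blood cells fell after irradiation at both ages. The part of the B cell markers in the lower Pla2g2d levels was not tested. Of the dendritic cell list, 12 genes of which 10 were tested, 3 were up and 5 down in young mice and 1 up and 3 down in old mice. Its summed level was 1460 to 1840 and 744 to 1210 in young and 1990 to 2760 and 1290 to 2350 in old mice without and with irradiation, with Siglech the most abundant gene and Xcr1 and Ccl22 above background on 0 of 24 arrays.

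Alox5 correlated at 0.94 with the monocyte list, or 0.73 without old irradiated replicates 4 and 6, whose summed level was 706 to 1760 in young unirradiated, 2150 to 4990 in young irradiated, 1280 to 2760 in old unirradiated and 1190 to 3790 in old irradiated mice. All 9 of its 10 genes that are on the array were above background on every array, and Fn1 had the highest mean. In young mice 4 were up and 1 down, and in old mice 1 was up and 3 down. Fn1 was the most abundant gene on every young irradiated array, at 10.14 to 11.95, so the sum there weighed it most. The sum was lowest of its group, 1190, on both old irradiated replicates 4 and 6, the 2 arrays on which Alox5 was low. F13a1 was the most abundant gene on these 2 arrays, at 9.90 and 9.89, its highest levels in the group, so it ran against Alox5. Every other gene of the list was at its lowest there, with Fn1 at 5.52 and 5.56 beside 6.97 to 11.30 on the rest of the group. Alox5ap correlated at 0.88 with the neutrophil list and at 0.73 with the platelet and megakaryocyte list. Of the neutrophil list, 4 of 10 genes were up in young and 0 of 10 in old mice. Its summed level was 1590 to 3770, 4070 to 11800, 5780 to 17300 and 5530 to 32100 in young unirradiated, young irradiated, old unirradiated and old irradiated mice, with S100a9 the most abundant gene. The paper reports that neutrophils became the most abundant white blood cells after irradiation. The part of either list in the levels of these members was not tested.

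Alox15 correlated at 0.94 with the list of peritoneal and pleural macrophages, of which Cd9, Thbs1, Itgam and Icam2 are also expressed by platelets or other cells of blood. Of its 9 genes tested 9 were up in young and 4 in old mice, and between 7 and 10 of 10 were above background on an array. Its summed level was 1540 to 2340 and 5410 to 8090 in young mice and 2040 to 3930 and 5960 to 10600 in old mice, without and with irradiation, with Cd9 the most abundant gene. In old irradiated mice this sum ran against Alox15. It was highest, at 10600, 9280 and 9670, on replicates 1, 4 and 6, where Prg4 was at 0.29, 2.69 and 2.40. It was 8150, 7280 and 5960 on replicates 2, 3 and 5, where Prg4 was at 7.82, 9.45 and 8.26. Ltc4s correlated at 0.82 with the tissue macrophage list, of which 10 of 10 genes tested were up in young and 1 in old mice. That sum was 54.4 to 477 and 795 to 3060 in young mice and 41.3 to 264 and 58.1 to 2170 in old mice. It was 756, 2170 and 1120 on old irradiated replicates 2, 3 and 5 and at most 100 on the other 3, the same division as in Alox15. Adgre1 had the highest mean of the list and Cd163 was above background on 0 of 24 arrays. The part of these lists in the values of Alox15 and Ltc4s was not tested.

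Some of the other lists also followed a member. Alox15 correlated at 0.82 with the basophil and mast cell list and at 0.82 with the tissue macrophage list, and Ltc4s at 0.75 with the list of peritoneal and pleural macrophages. Alox5 correlated at 0.74 with the basophil and mast cell list, at 0.70 with the dendritic cell list and at −0.75 with the erythroid list. Alox15 and Ltc4s correlated at 0.64 and 0.62 with the hepatocyte list. Other lists had values of that size: Alox15 had 0.64 with both the B cell and the endothelium list. Ltc4s had 0.63 with the basophil and mast cell list and −0.67 with the T cell list. The values of Alox5 with its 3 lists were 0.31, −0.25 and 0.13 without old irradiated replicates 4 and 6. Without the 6 irradiated arrays with hepatocyte signal, Alox15 had 0.42 and 0.56 with the basophil and mast cell list and the tissue macrophage list, 0.35 with the hepatocyte list and 0.93 with the peritoneal and pleural macrophage list. Ltc4s then had 0.66 with the tissue macrophage list. Of the T cell markers 7 of 10 were down in young and 0 of 10 in old mice. For eosinophils 0 of 7 genes tested were called at either age, and Epx was above background on 0 of 24 arrays. For basophils and mast cells 5 of 10 were up and 2 down in young mice and 1 up in old mice, and for endothelium 5 of 7 were up in young and 6 of 7 in old mice. For hepatocytes 0 of 7 were called in young and 7 of 7 were up in old mice, for cardiomyocytes 1 of 5 was up in young and 0 in old mice, and for erythroid cells 1 of 8 was up and 5 down in young and 0 of 8 called in old mice.

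Of 74 other genes of the pathway in 6 lists, 56 passed the filters. In young mice 30 were called after irradiation, 23 up and 7 down, which is 53.6% beside 35.4% of all genes, with a median change of 0.50 beside −0.20. In old mice 14 were called, 10 up and 4 down, which is 25% beside 24.9% of all genes, with a median of 0.40 beside −0.26. That count was 24, 13 up and 11 down, without old irradiated replicates 2, 3 and 5, and 21, 15 up and 6 down, without replicates 4 and 6. Calls over all 17797 genes rose as well, from 4428 to 7164 and 6128. In the fit with 7164 calls, old irradiated replicates 4 and 6, which correlated at 0.994, count as separate samples. Between unirradiated old and young mice 40 were called, 31 up and 9 down, which is 71.4% beside 63.9%, with a median of 0.82 beside 0.63. The interaction was called in limma for 0 of the 56, with 15 at an unadjusted p below 0.05. Without old irradiated replicate 3 it was called for 6, beside 1058 of all genes. The directions of the called genes named here were the same under 75th percentile scaling, quantile normalization, bright-probe scaling and the authors' values, wherever the gene passed the filters. No called gene named here changed direction when arrays that stood apart were left out, but some lost their call. Without young irradiated replicates 2, 4 and 5, 18 of 22 named genes were still called, and 4 were not: Ptgis at 4.10, Cbr1 at −0.52, Lpcat3 at 0.60 and Ptgr2 at 0.36, beside 4.81, −0.53, 0.81 and 0.70 on all arrays. Fewer arrays alone can lose a call. Without old irradiated replicates 4 and 6, and likewise without replicates 2, 3 and 5, 12 of 13 were still called, and Fads1, at 1.89 and 2.23, was not. Pla2g12b and Slco2a1 were called in both, Slco2a1 at 3.20 and 1.44. Some genes not called in old mice on all arrays gained a call. They were 3 without replicates 4 and 6, Mboat7 at 1.18, Pla2g7 at 1.45 and Ptgir at 1.27. Without replicates 2, 3 and 5 it was 1, Ptges3 at −1.07.

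Among 14 phospholipases and lipases tested, 8 were up and 1 down in young and 5 up in old mice. Pla2g4a, the cytosolic phospholipase that supplies arachidonate for eicosanoids, was upregulated in young mice from 1.68, 2.10 and 2.76 to 3.31, 4.45 and 4.77, by 2.11 (SE 0.27, adjusted p 7.14e-05). Its groups did not overlap. Pla2g10, another secreted phospholipase, was up by 2.29 (SE 0.31, adjusted p 9.31e-05) in young and 2.09 (SE 0.27, adjusted p 0.000318) in old mice, in 6 of 6 irradiated mice above all unirradiated ones. The monoacylglycerol lipase gene Mgll was up by 2.24 and 2.07 and the secreted phospholipase Pla2g12a by 1.48 and 1.36, in both cases without overlap. Pla2g12b was up in old mice, at least 7.35-fold, from 0 of 6 arrays above background to 5 of 6. Of the other group II phospholipases, Pla2g2e changed by −0.92 (SE 0.31, adjusted p 0.0259) in young mice and was not called. Pla2g2a and Pla2g2c did not pass the dim filter. Pla2g2f was tested too, but the rule for naming genes did not select it after irradiation, so its change is not given.

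Of 8 genes that return arachidonate to phospholipids or make it, 4 were up in young mice and 2 up and 1 down in old mice. Fads2, a fatty acid desaturase, was up by 2.65 (SE 0.32, adjusted p 4.3e-05) and 1.90 (SE 0.34, adjusted p 0.00167) without overlap. The acyltransferase genes Lpcat2, Mboat7 and Lpcat3 were up by 1.53, 1.04 and 0.81 in young mice, and Fads1 by 2.44 in old mice, with 5 of 6 irradiated mice above all unirradiated ones. Acsl3, an acyl-CoA synthetase, was down by −1.40 in old mice.

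Of 13 other genes of lipoxygenases and leukotriene handling tested, 4 were up and 3 down in young mice and 1 was up in old mice. Gpx4, which reduces lipid hydroperoxides, was up in 6 of 6 mice at each age, by 1.55 (SE 0.21, adjusted p 0.000116) and 1.52 (SE 0.29, adjusted p 0.00251). In young mice Dpep2 was up by 2.51 and Ptgr1 by 2.19, and Ggt1 was at least 1.96-fold lower, with 0 of 6 irradiated arrays above background. Cyp4f18, with the highest signal among the uncalled, changed by −0.28.

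Among the 5 receptors for leukotrienes and lipoxins tested, 4 were up in young mice and 1 in old mice. Cysltr1, a receptor for the cysteinyl leukotrienes that Ltc4s begins, was up in young mice by 2.23 (SE 0.25, adjusted p 2.92e-05), in 6 of 6 mice above all unirradiated ones. Cysltr2 was up at both ages, by 1.98 (SE 0.36, adjusted p 0.000687) and 1.65 (SE 0.27, adjusted p 0.00107). Fpr2 and Ltb4r1, receptors of lipoxin A4 and leukotriene B4, were up by 1.62 and 0.81 in young mice, each with 5 of 6 irradiated mice above all unirradiated ones.

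Of 11 prostanoid synthases and genes of prostanoid removal, 2 were up and 2 down in young and 1 up and 2 down in old mice. Ptgis, the prostacyclin synthase, was up in young mice by 4.81 (SE 1.03, adjusted p 0.00217), from −0.48, 1.40 and 6.18 to 6.00, 7.60 and 8.36, with 1 unirradiated mouse among the irradiated ones. Ptges and Cbr1 were down in young mice by −0.86 and −0.53, Akr1b3 and Hpgd in old mice by −1.25 and −1.41, and the prostaglandin transporter gene Slco2a1 was up in old mice by 2.73. Of the 5 prostanoid receptors tested, 1 was up and 1 down in young mice and 1 down in old mice. Tbxa2r, the receptor of thromboxane, was down in young mice from 3.55, 3.66 and 3.72 to 1.59, 1.95 and 2.75, by −1.59 (SE 0.21, adjusted p 8.11e-05), and in old mice by −1.18 (SE 0.24, adjusted p 0.00353). All 6 irradiated mice were below all unirradiated mice at each age, the opposite direction to the level of Tbxas1. Ptgir, the prostacyclin receptor, was up in young mice by 1.64 (SE 0.21, adjusted p 7.15e-05) and not called in old mice at 0.92. In old mice it was called up at 1.27 without irradiated replicates 4 and 6, and not called at 0.71 without replicates 2, 3 and 5.

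Among genes called between the unirradiated groups, Pla2g12b was lower at the older age, at least 4.9-fold, and Alox12b changed by −2.78 (SE 0.23, adjusted p 1.17e-06), Pla2g2e by −2.48 (SE 0.22, adjusted p 2.16e-06) and Ltb4r2 by −2.23 (SE 0.29, adjusted p 2.79e-05). In each of these, 6 of 6 old mice were below all young mice. Fpr2 was up by 2.65 (SE 0.32, adjusted p 1.92e-05) and Pla2g7, which degrades platelet-activating factor, by 1.72 (SE 0.26, adjusted p 8.75e-05). The number of pathway genes called was 40 with the array median and 22, 25, 20 and 17 with 75th percentile scaling, quantile normalization, bright-probe scaling and the authors' values. Those counts were 31 up and 9 down, 9 and 13, 15 and 10, 7 and 13, and 6 and 11. Over all genes, 11368, 5827, 6046, 5544 and 4407 were called.

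**Figure D5:**
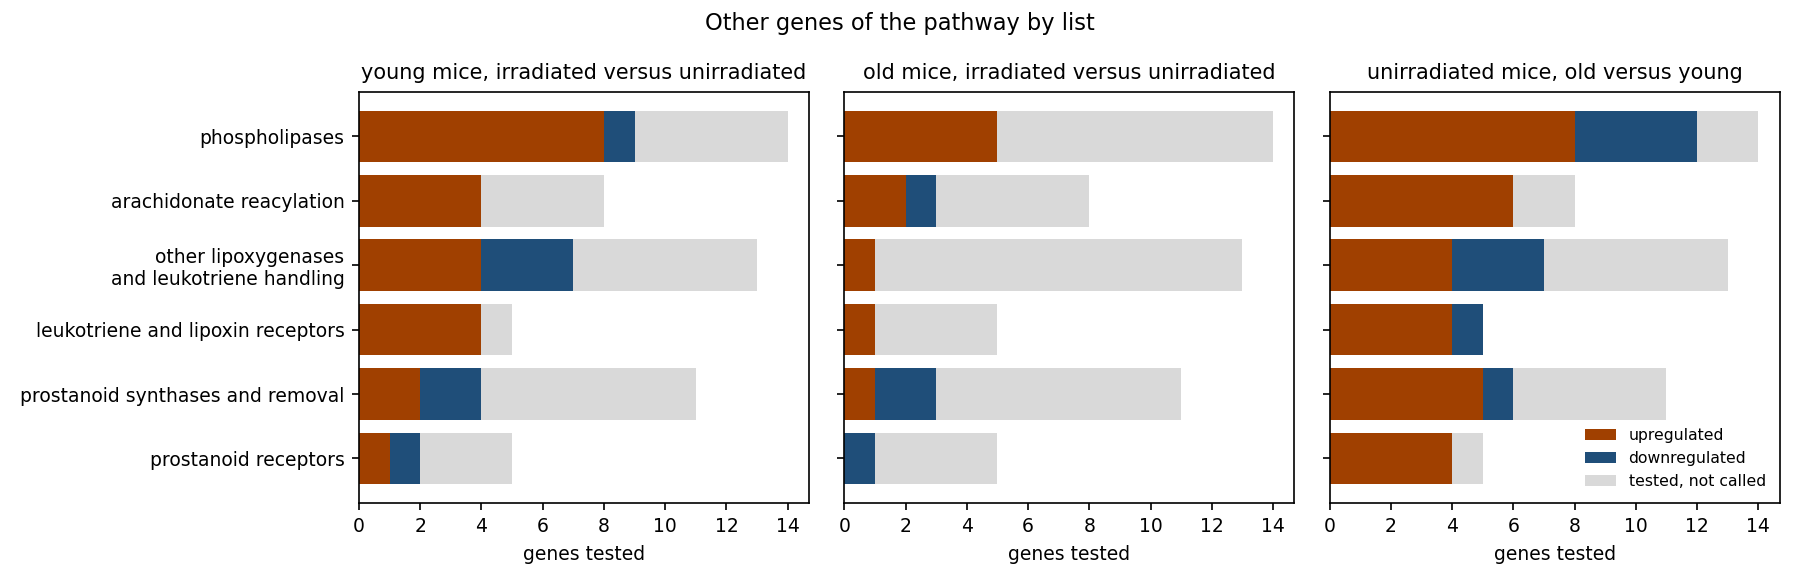
Number of genes up, down and uncalled in each of the 6 pathway lists in the 3 comparisons. In young mice 8 of 14 phospholipases and lipases and 4 of 5 leukotriene and lipoxin receptors were up.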

How the data were processed

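The members and the lists were chosen with earlier results of these data known. The deposited spot files give intensity values, per the file headers background-subtracted Cy3 signals of 1-colour Agilent arrays made by the authors with Feature Extraction 12.0.2, with deposited flags for spots that are non-uniform, saturated or well above background. The deposited matrix gives log2 values that the authors normalized between arrays and filtered. The methods describe median normalization, but no constant per array turns the spot values into this matrix. Its column medians ran from 5.77 to 6.73, and 8 members are in it. Here, the log2 of the processed intensity minus the array median over 43020 spots that are not controls was averaged over replicate spots of 39429 probes. Probes were left out where, on 25% or more of the arrays, the spot was flagged as non-uniform or its signal was not significant, which kept 24121 probes of 18729 genes. On at least 20% of the arrays a gene had to be 1.5-fold away from its median, and the probe with the highest mean stood for a gene, which left 17797 genes. Each comparison was fitted on its own 12 arrays, and the interaction on all 24, with limma 3.58.1 (lmFit, eBayes, two-sided, Benjamini-Hochberg over all genes) in R 4.3.3 with data.table at version 1.17.8, tested on simulated data. Python 3.11.15, NumPy 2.4.6, pandas 2.3.3 and Matplotlib 3.10.9 read the files and drew the plots. SEs of members that were not tested come from the group SDs. Alternatives tried were 3 other scalings, normexp correction with an offset of 50, the authors' values, other filters and the mean of all probes. Also tried were 1 fit of 24 arrays, robust variance, slide and replicate blocks, and arrays left out. Named in each pathway list and comparison were at most 4 called genes with the largest change and the uncalled gene with the highest signal, and for each member its nearest genes, left out for Pla2g2d at background; some of the named genes are summarized as counts. No protein sequences were at hand.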

Additional observations from a re-analysis of the deposited data

Results flagged for a closer look

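Alox12 on young irradiated replicate 4 was 8.81 and lay far below the other 5 arrays of its group, the nearest of which was 10.10; the gap was 0.64 of the range of the group. It was the 1 array that stood out so in 40 groups of 6 looked at, and chance alone marks about 1 in 20 groups. The second probe of Tbxas1, which stands for no gene in the comparisons, was above background on old irradiated replicates 4 and 6, at 1.76 and 2.17, and on 0 of 6 old unirradiated arrays.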

How the results depend on the processing

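Across all alternatives, 94 of 124 counts of genes called, 117 of 124 counts of members, 109 of 124 counts of pathway genes and 656 of 716 log2 changes of members were within 1.5 times the reported count or within 1 SD of the reported change, and no called change of a member reversed. Where no construction is named, the cause was not tested. The 24 arrays hold 6 mice per group, and probes near background, such as Ptgs2 and Pla2g2d after irradiation, have no firm fold change. Pla2g2d gave −2.19 in young and −1.56 in old mice with normexp. That correction also added an offset of 50, which by construction shrinks changes at low signal.

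The normexp correction could not be fitted well on 3 arrays, whose fitted background was −819, −541 and −538; over all arrays, 33 spots on 5 arrays had a bright local background (over 5 times the array median). The correction called 837 genes in young mice, 8 in old mice, 0 between ages, 0 members in old mice and 0 between ages, and 10, 0 and 0 pathway genes. A fit without those spots, chosen after seeing the data, failed on 0 arrays and called 2536, 1476 and 3842 genes and 7 and 20 pathway genes in old mice and between ages.

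The authors' values called 3736, 2811 and 4407 genes, 2 members and 17 pathway genes between ages. With 1 fit of 24 arrays 3994 genes were called in young mice and 6216 between ages. Between ages, the 75th percentile, quantile normalization and the probes well above background called 5827, 6046 and 5544 genes, 2, 2 and 1 members and 22, 25 and 20 pathway genes; 2 of the 3 shift all values of an array, quantile normalization moves them by rank, and age differs between scans. For the interaction they called 8, 7 and 8 genes, the filter on all arrays of a group 4, the mean of all probes 2, and the slide block 32 genes and 1 pathway gene.

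Without old irradiated replicates 2, 3 and 5, 7164 genes and 24 pathway genes were called in old mice and 6050 genes, 2 members and 20 pathway genes for the interaction. These fits keep old irradiated replicates 4 and 6, which correlated at 0.994, as separate samples. Without replicates 4 and 6, chosen after seeing the data, 21 pathway genes were called in old mice and 27 genes and 1 pathway gene for the interaction. Also chosen after seeing the data were leaving out young irradiated replicates 2, 4 and 5 (5864 genes in young mice) and treating old unirradiated replicates 1 and 6 as 1 sample (3276 genes in old mice).

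Leaving out each array gave 5443 to 6589 genes in young mice, 3234 to 4635 in old mice, 10396 to 11649 between ages and 0 to 1058 for the interaction; 8 to 8, 4 to 5, 4 to 5 and 0 to 0 members; and 26 to 31, 12 to 16, 38 to 41 and 0 to 6 pathway genes. The interaction had 1058 genes and 6 pathway genes without old irradiated replicate 3, 7 genes without old irradiated replicate 1 or 2, 5 without old irradiated replicate 5 or old unirradiated replicate 4, 2 without old unirradiated replicate 2 and 1 without young irradiated replicate 1.

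Samples of 2 groups share only a replicate number. Same-numbered arrays correlated in their deviations at −0.29 to 0.29, −0.20 to 0.34 and −0.08 to 0.16 in the young, the old and the age comparison, and 1, 3 and 0 of 6 correlated best with their own number. With the replicate block 5068, 3468, 10369 and 0 genes were called, 8, 4, 5 and 0 members and 26, 13, 41 and 0 pathway genes. The block removed Alox5ap from the members called in old mice and changed the call of no other member.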
